A study of Homo sapiens with 6 samples.

Results

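The 9 genes described here, RDH10, DHRS3, ALDH1A1, ALDH1A2, ALDH1A3, CRABP1, CRABP2, CYP26A1 and RARB, cover the synthesis, binding, breakdown and sensing of retinoic acid, out of 59653 gene symbols in the count table. They were listed by name, after RDH10 had been seen among the strongest differences between the groups compared here. Counts came from PA1, an established human ovarian teratocarcinoma line labelled as wild type, transfected in adherent culture with small interfering RNA (siRNA). Controls received a negative silencer control, and the other group received siRNA to SOX2, a transcription factor of pluripotent and neural progenitor cells. The labels name 2 siRNAs to SOX2 without stating if they were mixed. Both groups were moved after 24 h to poly-HEMA coated plates, to which cells cannot attach, and RNA was taken after another 72 h. Each group had 3 libraries, numbered 1 to 3, and nothing in the labels says that these came from separate cultures, so p-values measure only the spread between these libraries. All cells were of 1 line and all were grown without anchorage, and untransfected or retinoid-treated cells are not among the samples.

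Retinoic acid is made from vitamin A (retinol) in consecutive oxidations. RDH10 oxidises retinol to retinaldehyde and DHRS3 reduces it back, and the aldehyde dehydrogenases ALDH1A1, ALDH1A2 and ALDH1A3 then make retinoic acid from retinaldehyde in a step that is not reversed. In the cell, retinoic acid is bound by CRABP1 and CRABP2, is oxidised by CYP26A1 for removal, and acts through the nuclear receptors RARA, RARB and RARG in partnership with RXR receptors. CYP26A1, RARB, DHRS3 and CRABP2 are themselves genes that rise with retinoic acid in many cell types, and embryonal carcinoma cells are a classical system in which retinoic acid causes differentiation.

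Receptor pairs of RAR and RXR bind direct repeats of a 6-base sequence, of which the form with 5 bases between the repeats (DR5) is the best known. The RefSeq start-site windows (GRCh38.p14, 250 bases before to 50 after each start) were searched on both strands for 2 such repeats with 1, 2 or 5 bases between them (DR1, DR2 and DR5). A repeat was read as AGGTCA, the consensus, or one of its close forms, among which AGTTCA was taken, along with the form GGGTCA and, as the last one, GGTTCA. Of the 9 genes, 8 matched the table by symbol, with 15 windows, and RDH10 did not. Windows of RARB and CYP26A1 held a DR5, and no window of the 8 genes held a DR1 or DR2. Over all 35116 windows, 0.0883% held a DR5, 0.131% a DR1 and 0.0399% a DR2. The RARB match lay at chr3:25428210-25428226 (plus strand), beginning 53 bases before the start at 25428263 and outside the exons of GENCODE 29. The CYP26A1 match lay at chr10:93073803-93073819, beginning 90 bases before the start at 93073893, on the strand opposite to the gene and within the exon of a CYP26A1 transcript that starts further upstream. The 2 matches are shown because these genes differed in opposite directions below. Each is read 5′ to 3′ on the strand of the repeats, which are in capitals:
RARB: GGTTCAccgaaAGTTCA
CYP26A1: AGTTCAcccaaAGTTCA
They shared 15 of 17 bases, and 11 of the 12 bases in the repeats. With the bases around them, on the plus strand, the same sites read:
RARB: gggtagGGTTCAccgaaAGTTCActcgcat
CYP26A1: taaagaTGAACTttgggTGAACTaattgtc
The 250 bases before that RARB start (chr3:25428013-25428262, plus strand), which lie in no annotated exon, are printed with the repeats in capitals:
RARB: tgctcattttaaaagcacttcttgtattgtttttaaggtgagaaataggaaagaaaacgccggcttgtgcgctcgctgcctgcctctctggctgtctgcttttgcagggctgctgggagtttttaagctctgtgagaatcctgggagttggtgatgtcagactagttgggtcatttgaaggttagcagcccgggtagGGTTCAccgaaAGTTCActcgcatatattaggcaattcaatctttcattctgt
A match of letters is a description of sequence and not a site of binding. RARB has 4 start-site windows and CYP26A1 has 2, and the counts are per gene, so the start that each read came from is not known.

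Depth was 25152313 to 32753184 counts per library, at which 3 counts equal 0.0909 to 0.120 CPM (counts scaled to a common library total with TMM factors). SOX2, the targeted gene, was at 245, 265 and 256 CPM in the control libraries and at 51.8, 54.9 and 50.6 CPM in the SOX2 siRNA libraries, so 20.5% of the control level remained (log2 fold change -2.28, SE 0.0437). Embryonal markers such as POU5F1 (301 ± 18.6 CPM in control, SD, n = 3), LIN28A (706 ± 3.61) and SALL4 (151 ± 4.60) were abundant, while DPPA4 (3.05 ± 0.0272) and L1TD1 (1.79 ± 0.921) were low and TDGF1 had 0 to 3 counts per library.

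Of the 9 genes, 5 had groups of libraries that did not overlap. RDH10, CYP26A1 and CRABP1 were higher after SOX2 siRNA, and CRABP2 and RARB were lower. The other 4, DHRS3 and the 3 aldehyde dehydrogenase genes, had overlapping groups. Because the genes were chosen with results of this comparison known, their differences are given without p-values. Values after ± are SDs over 3 libraries throughout. For reading these counts, 41.8% of the 17592 genes tested had groups that did not overlap. By edgeR's quasi-likelihood test with Benjamini-Hochberg adjustment, 28.2% were called at an adjusted p under 0.05, 14.8% higher and 13.4% lower. Of the 8 members that passed the filter on low counts, 3 were called higher and 2 lower, and nothing is read from that count.

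**Figure D1:**
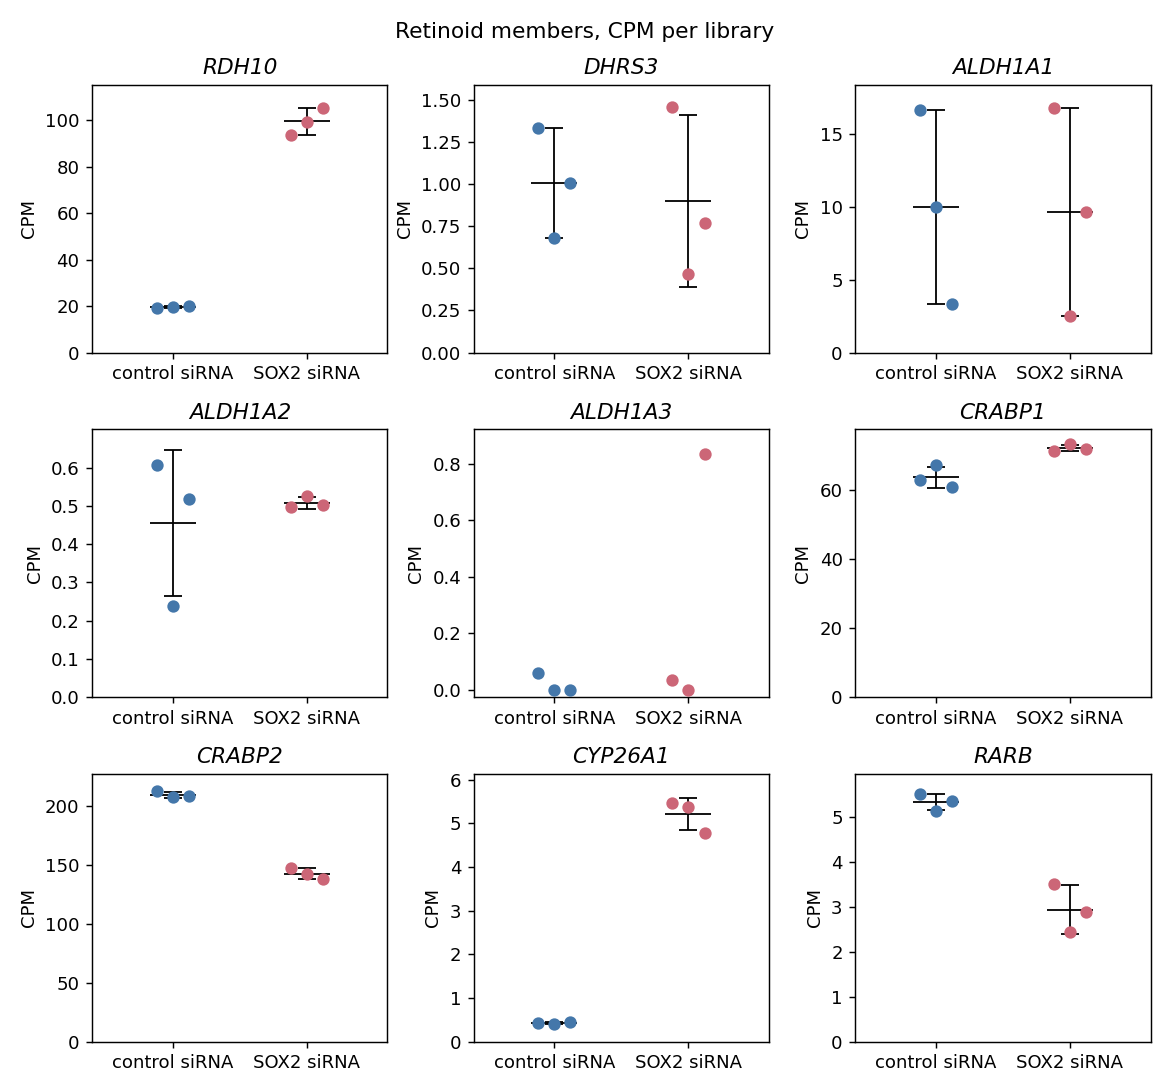
CPM of the 9 retinoid genes in each library (points; control siRNA blue, SOX2 siRNA red), with the mean (long bar) and SD (whiskers) of 3 libraries, except for ALDH1A3, which was near 0 in 5 of 6 libraries. Each panel has its own linear axis from 0. RDH10 and CYP26A1 are far apart between groups, CRABP2 and RARB are lower after SOX2 siRNA, and ALDH1A1 spans nearly the same wide range in both groups.

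RDH10, the enzyme that starts retinoic acid synthesis, was at 19.3, 19.5 and 20.1 CPM in control replicates 1 to 3 (638, 489 and 582 counts). In SOX2 siRNA replicates 1 to 3 it was at 93.8, 99.4 and 105 CPM (2832, 3214 and 3149 counts). All 3 SOX2 siRNA libraries lay above all controls, with means of 19.7 ± 0.419 and 99.5 ± 5.80 CPM (SD, n = 3), a ratio of 5.06. The log2 fold change was 2.34 (SE 0.0528), the 40th highest of 17592 tested genes. RDH10 lies at chr8:73294612-73325281 (plus strand, GENCODE 29, GRCh38). Its exons share 278 bases with RDH10-AS1 on the opposite strand, which had 0 counts in every library.

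Genes whose profile over the 6 libraries lay nearest to that of RDH10 were found by Euclidean distance between centred log2 CPM values, among genes with a mean log2 CPM of at least 2. They were APLNR, BGN, SLC13A4, LIPG and CER1, at distances of 0.138 to 0.318. APLNR, the apelin receptor gene, had a control mean of 39.1 ± 1.42 CPM and a SOX2 siRNA mean of 209.5 ± 12.1 CPM. BGN, encoding the matrix proteoglycan biglycan, was at 7.58 ± 0.644 and 38.4 ± 0.442 CPM. SLC13A4, a sulfate transporter gene, was at 2.55 ± 0.151 and 11.97 ± 0.747 CPM. LIPG, encoding endothelial lipase, was at 11.9 ± 0.396 and 52.3 ± 6.39 CPM, and CER1, a secreted Nodal and BMP antagonist, at 3.60 ± 0.373 and 20.4 ± 0.453 CPM (SD, n = 3). These genes were picked for their likeness, so their differences are a description.

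DHRS3, which returns retinaldehyde to retinol, was low. It was at 1.33, 0.679 and 1.003 CPM in the control libraries (44, 17 and 29 counts) and at 1.46, 0.464 and 0.770 CPM in the SOX2 siRNA libraries (44, 15 and 23 counts). The groups overlapped throughout, and the log2 fold change of -0.19 had a 95% interval from -1.05 to 0.68. Per kilobase of exon, RDH10 exceeded DHRS3 8.27, 16.4 and 11.5 times in the control libraries and 36.7, 122 and 78.1 times in the SOX2 siRNA libraries.

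ALDH1A1 was by far the highest of the 3 aldehyde dehydrogenase genes per kilobase of exon, and of the tested members it had the widest spread within groups relative to its mean. It was at 16.7, 10.02 and 3.32 CPM in control replicates 1 to 3 (550, 251 and 96 counts) and at 16.8, 2.51 and 9.67 CPM in SOX2 siRNA replicates 1 to 3 (507, 81 and 289 counts). The highest library exceeded the lowest 6.70 times, yet the group means were 10.001 ± 6.67 and 9.66 ± 7.14 CPM (SD, n = 3). Control replicate 1 and SOX2 siRNA replicate 1 were high, and control replicate 3 and SOX2 siRNA replicate 2 were low. The log2 fold change was -0.076 with a 95% interval from -2.54 to 2.39, too wide to tell a large change in either direction from none. It was 0.55 without control replicate 1 and 0.39 without SOX2 siRNA replicate 2.

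The same uneven profile was shared by other genes. By the distance used for RDH10, among genes with a mean log2 CPM of at least 0, the 10 nearest to ALDH1A1 included VSIG1, AKR1B10, MUCL3, TCN1, S100P, EPCAM, ANXA10, REG4 and CLCA1, at distances of 0.186 to 0.728. This search was chosen after the values of ALDH1A1 were seen. VSIG1, a junction protein gene known from stomach epithelium, was at 3.33, 1.88 and 0.519 CPM in control replicates 1 to 3 and at 3.25, 0.402 and 1.81 CPM in those with SOX2 siRNA. AKR1B10, whose product reduces retinaldehyde, was at 3.51, 1.597 and 0.484 CPM and then 3.05, 0.402 and 1.77 CPM. EPCAM, an epithelial adhesion molecule gene, was at 3.73, 1.68 and 0.865 CPM and then 3.54, 0.619 and 2.11 CPM. REG4, a secreted lectin gene known from the gut, was at 10.1, 5.19 and 1.52 CPM and then 9.84, 0.866 and 5.66 CPM. Each of these 9 genes had overlapping groups, and none was called between them by edgeR. They were picked for their likeness to ALDH1A1, whose groups overlap, so this follows from the selection and is a description. In bulk RNA, more cells of one kind and more RNA per cell cannot be told apart.

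**Figure D2:**
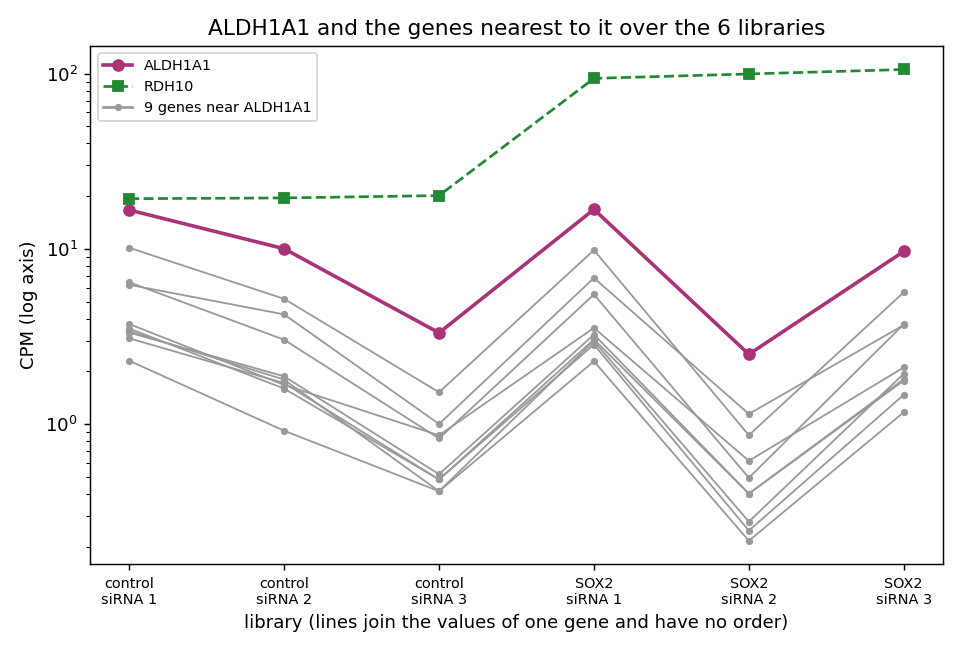
CPM on a log axis in the 6 libraries for ALDH1A1 (purple), 9 of the 10 genes nearest to it (grey) and RDH10 (green, dashed); lines join the values of 1 gene, and libraries have no order. ALDH1A1 and the grey genes are high in replicate 1 of both groups and low in control replicate 3 and SOX2 siRNA replicate 2, whereas RDH10 separates the groups.

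ALDH1A2 and ALDH1A3, the retinaldehyde dehydrogenases of embryonic mesoderm and of eye and nasal tissue, were close to the limit of detection. ALDH1A2 had 20, 6 and 15 counts in the control and 15, 17 and 15 in the SOX2 siRNA libraries, or 0.606, 0.239 and 0.519 against 0.497, 0.526 and 0.502 CPM. The groups overlapped, and the log2 fold change of 0.13 had a 95% interval from -0.61 to 0.86; it was -0.15 without control replicate 2. ALDH1A3 had 2, 0 and 0 counts in the control and 1, 0 and 25 counts in the SOX2 siRNA libraries, and did not pass the filter on low counts. Its signal lay in SOX2 siRNA replicate 3 alone. AQP9 and AC025431.1, whose exons overlap those of ALDH1A2 on the opposite strand, had 0 counts in every library.

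CRABP1 and CRABP2, the cytoplasmic retinoic acid binders, were the most abundant members and differed in opposite directions. CRABP2, which passes retinoic acid on to its receptors, was at 212, 207 and 208 CPM in the control and at 147, 142 and 138 CPM in the SOX2 siRNA libraries. All 3 SOX2 siRNA libraries lay below all controls, at 68.1% of the control mean, with a log2 fold change of -0.55 (SE 0.0368). CRABP1, which is linked to retinoic acid turnover, was at 62.9, 67.3 and 61.1 CPM in the control and at 71.5, 73.4 and 71.9 CPM in the SOX2 siRNA libraries. The groups did not overlap, but the difference was small, with a ratio of 1.13 and a log2 fold change of 0.18 (SE 0.0443). Per kilobase of exon, CRABP2 exceeded CRABP1 3.05, 2.78 and 3.07 times in the control and 1.86, 1.75 and 1.73 times in the SOX2 siRNA libraries. AC011270.2, which overlaps CRABP1 exons on the opposite strand, had 0 to 5 counts per library.

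CYP26A1, the cytochrome P450 that removes retinoic acid, had the highest log2 fold change of the 8 tested members. It had 14, 10 and 13 counts in the control and 165, 174 and 143 counts in the SOX2 siRNA libraries, or 0.424, 0.399 and 0.450 against 5.47, 5.38 and 4.79 CPM. The groups lay far apart, with means of 0.424 ± 0.0253 and 5.21 ± 0.370 CPM (SD, n = 3), a ratio of 12.3. The log2 fold change of 3.60 (SE 0.182, 95% interval 3.22 to 3.99) was the 12th highest of 17592. AL358613.3, which overlaps CYP26A1 exons on the same strand, had 0 counts in every library.

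RARB, the receptor gene with a DR5 near a start, differed the other way. It was at 5.51, 5.15 and 5.36 CPM in the control (182, 129 and 155 counts) and at 3.51, 2.44 and 2.88 CPM in the SOX2 siRNA libraries (106, 79 and 86 counts). All SOX2 siRNA libraries lay below all controls, at 55.1% of the control mean, with a log2 fold change of -0.86 (SE 0.141). CYP26A1 and RARB, whose DR5 sequences are printed above, therefore differed in opposite directions. Per kilobase of exon, CYP26A1 was at 0.0957, 0.0964 and 0.104 times RARB in the control libraries and at 1.94, 2.74 and 2.07 times RARB in the SOX2 siRNA libraries. The exons of RARB share 28 bases with those of TOP2B on the opposite strand, which had 10221 to 13470 counts per library, and the use of strand in counting is not given in the sources used here.

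Levels can be compared between genes per kilobase of exon, using GENCODE 29 lengths. In the control libraries the order was CRABP2 at 190 CPM per kilobase, CRABP1 at 64.2, RDH10 at 3.69, ALDH1A1 at 3.51, RARB at 1.44, DHRS3 at 0.331, CYP26A1 at 0.143, ALDH1A2 at 0.0527 and ALDH1A3 at 0.0035. ALDH1A1, spread from 1.17 to 5.85, overlapped both of its neighbours RDH10 and RARB, and no other neighbours overlapped. In the SOX2 siRNA libraries RDH10 was at 18.7 and CYP26A1 at 1.75 CPM per kilobase, the latter now ahead of RARB at 0.796, with ranges of 1.61 to 1.84 and 0.661 to 0.950. ALDH1A1 still overlapped its next neighbour, CYP26A1, and ALDH1A2 and ALDH1A3 overlapped each other.

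The other genes of the pathway were taken from general knowledge, with 51 genes for retinol uptake and storage, oxidation and reduction, binding, breakdown, receptors and coregulators. The list was chosen with earlier results of these data known, so its called shares and the p-values of its genes are a description. Most did not pass the test, and the called genes had log2 fold changes from -0.59 to 0.45. Of 34 tested, 7 were called higher and 2 lower (edgeR, Benjamini-Hochberg adjusted p under 0.05), and 25 were not called. That is 26.5% of those tested, beside 28.2% of all tested genes. The median log2 fold change was -0.049, beside -0.00085 for all tested genes. The 17 genes not tested, such as LRAT with 0 to 3 counts and RXRG with 0 to 2 counts per library, were too low. The count of lower genes was 1 without SOX2 siRNA replicate 2 or 3, 1 by DESeq2's Wald test and 4 with upper-quartile scaling.

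**Figure D3:**
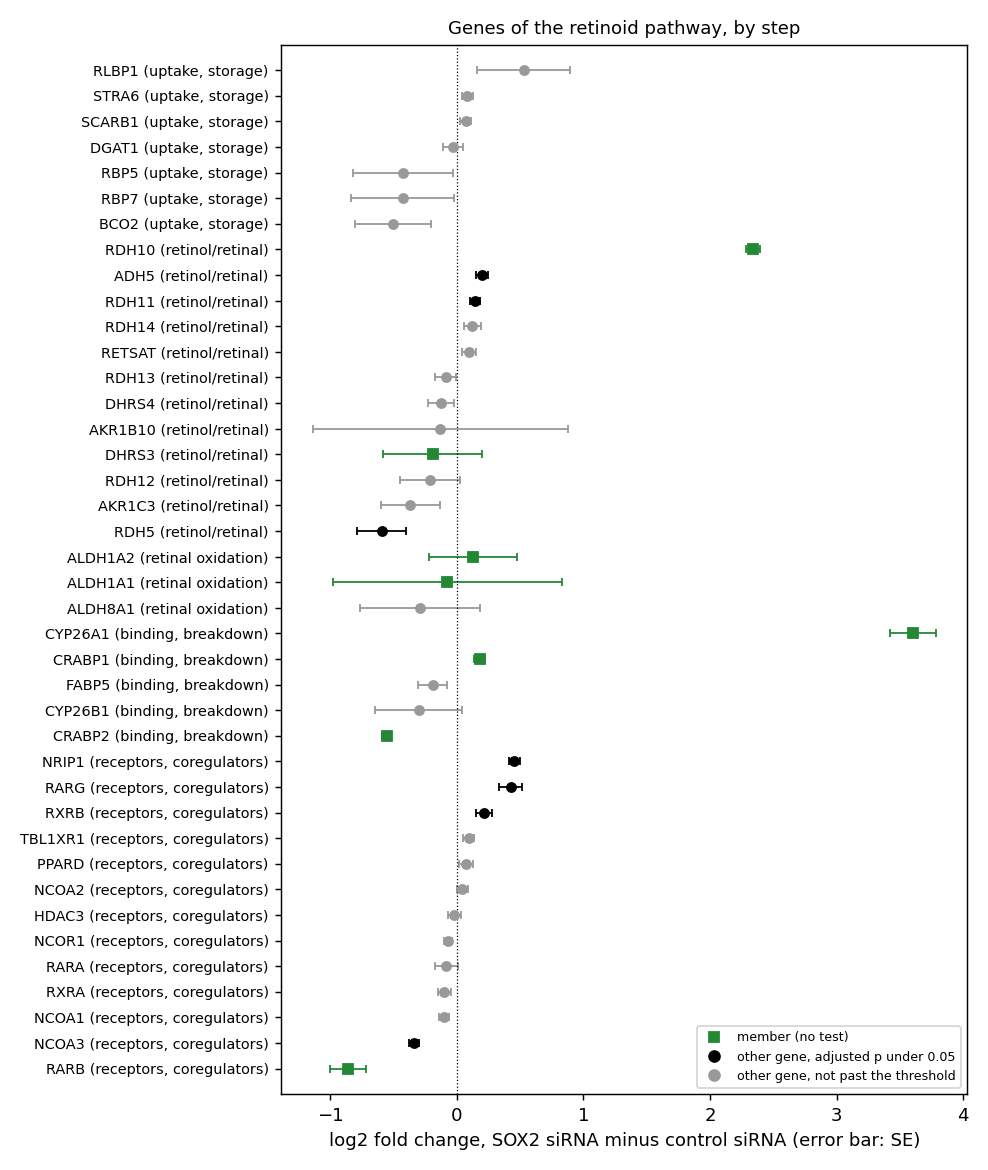
Log2 fold changes with SE (SOX2 siRNA minus control siRNA, 3 libraries each) of retinoid pathway genes that were tested and are reported here, grouped by step; green squares are members, black points other genes past the threshold, grey points other genes below it. Apart from RDH10, CYP26A1 and RARB, the plotted genes lie within 0.6 of 0.

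Among genes of uptake and storage, STRA6, the membrane receptor for retinol carried in blood and itself a gene that rises with retinoic acid, was abundant at 87.5 ± 2.19 and 92.7 ± 4.03 CPM. Its log2 fold change of 0.082 had a 95% interval from -0.0070 to 0.17 and did not pass the test (edgeR adjusted p = 0.167).

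Among the other oxidoreductases for retinol and retinaldehyde, 2 of 10 tested were higher and 1 lower. Of all tested genes, 14.8% were higher and 13.4% lower. RDH11, a retinaldehyde reductase, rose from 62.7 ± 0.339 to 69.4 ± 0.249 CPM (log2 fold change 0.15; edgeR adjusted p = 0.00994). ADH5, an alcohol dehydrogenase mainly known for handling formaldehyde, rose from 183 ± 8.80 to 209.6 ± 12.2 CPM (0.20; edgeR adjusted p = 0.00406). RDH5, a retinol dehydrogenase of the retinal pigment epithelium, fell from 2.25 ± 0.425 to 1.49 ± 0.0267 CPM (-0.59; edgeR adjusted p = 0.0293). The RDH5 call was lost without control replicate 1 or 3 or SOX2 siRNA replicate 2 or 3, at log2 fold changes of -0.52, -0.50, -0.59 and -0.59, and by DESeq2's Wald test (adjusted p = 0.114). RDH10 had been seen among the strongest differences beforehand, so it is no yardstick for these genes.

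Of the genes for binding and breakdown outside the members, none of 2 tested was called by edgeR. FABP5, a fatty acid binder that can carry retinoic acid, was at 10.4 ± 1.67 and 9.12 ± 0.871 CPM (log2 fold change -0.19, edgeR adjusted p = 0.254). It passed the test without control replicate 3, at -0.32. CYP26B1, the paralog of CYP26A1, was at 0.722 ± 0.237 and 0.588 ± 0.242 CPM. Its log2 fold change of -0.30 had a 95% interval from -1.03 to 0.43. CYP26C1 had 0 or 1 count in each library.

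Among receptors and coregulators, 4 of 13 tested were higher, RARG, RXRB and NRIP1 among them, and 1 was lower. The shares over all tested genes were 14.8% higher and 13.4% lower. RARG rose from 7.11 ± 0.304 to 9.58 ± 0.699 CPM (log2 fold change 0.43; edgeR adjusted p = 0.00169), while RARA was at 11.7 ± 0.819 and 11.0 ± 1.22 CPM (-0.083, 95% interval -0.27 to 0.11; edgeR adjusted p = 0.544). RXRB rose from 18.9 ± 0.616 to 21.98 ± 1.20 CPM (0.22; edgeR adjusted p = 0.0142), a call lost without control replicate 2 (0.19) or SOX2 siRNA replicate 1 (0.17) and by DESeq2's Wald test (adjusted p = 0.0578). RXRA was at 32.6 ± 0.385 and 30.5 ± 0.861 CPM (-0.099; edgeR adjusted p = 0.162). NRIP1, a corepressor that binds liganded receptors, rose from 236 ± 9.70 to 323 ± 18.0 CPM (0.45; edgeR adjusted p = 6.48e-07). The coactivator gene NCOA3 fell from 88.9 ± 0.902 to 70.5 ± 1.92 CPM (-0.33; edgeR adjusted p = 5.15e-06). The 3 receptor genes RARA, RARB and RARG thus had values of -0.083, -0.86 and 0.43.

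The comparison also asked whether genes that respond to retinoic acid go with RDH10. A list of 35 genes known from other systems to rise with retinoic acid, without the members and sharing 6 genes with the pathway list, gave differences in both directions. It too was chosen with earlier results of these data known, so its called counts and p-values are a description. Of 23 tested, 6 were called higher and 3 lower (edgeR, Benjamini-Hochberg adjusted p under 0.05), beside 14.8% higher and 13.4% lower among all tested genes. In either direction 39.1% of those tested were called, beside 28.2% of all tested genes, and the list was not tested as a set. The median log2 fold change was 0.082, beside -0.00085 for all tested genes. Of the 12 genes not tested, STRA8 had no counts, and HOXB1 and HOXB4 had 0 or 1 count per library.

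**Figure D4:**
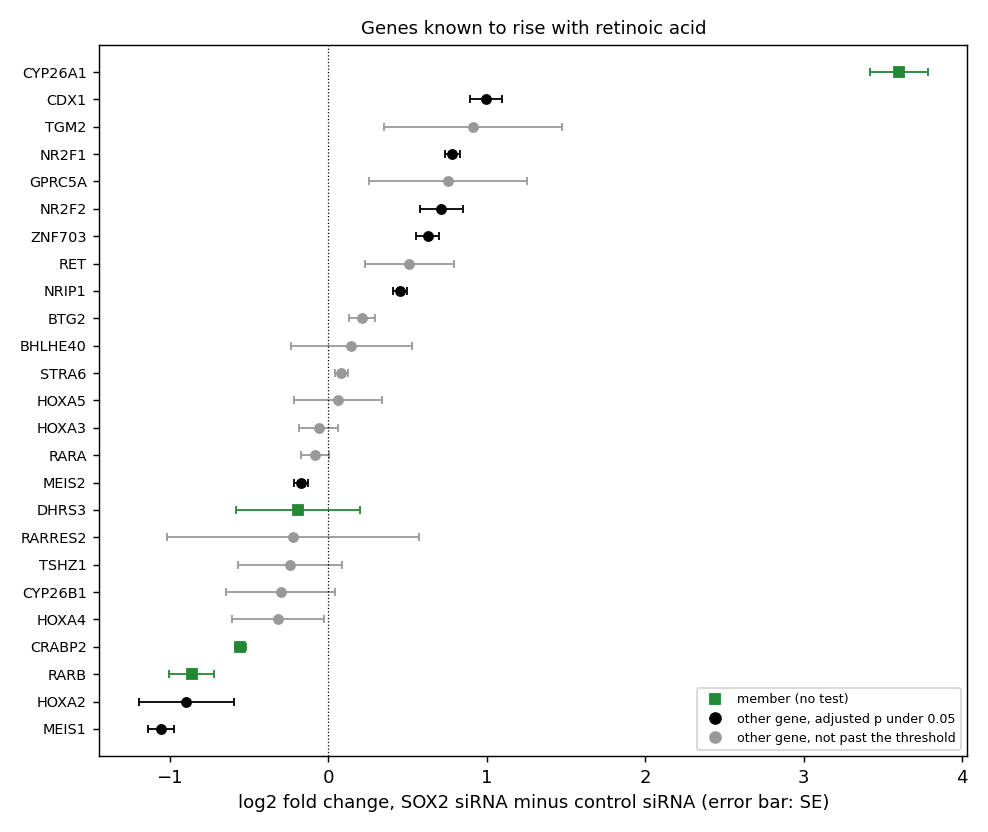
Log2 fold changes with SE (SOX2 siRNA minus control siRNA, 3 libraries each) of genes known to rise with retinoic acid that were tested and are reported here, including 4 members (green squares); black points passed the threshold, grey points did not. CYP26A1 lies alone at 3.60, and genes on both sides of 0 passed the threshold.

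The genes that rose were led by transcription factors. CDX1, a caudal homeobox factor that responds to retinoic acid in the embryo, rose from 4.78 ± 0.334 to 9.53 ± 0.617 CPM (a log2 fold change of 0.996, edgeR adjusted p = 6.31e-07). The orphan receptor genes NR2F1 and NR2F2 rose from 89.8 ± 3.36 to 154.5 ± 8.82 CPM (0.78; edgeR adjusted p = 5.19e-10) and from 2.91 ± 0.290 to 4.79 ± 0.414 CPM (0.71; edgeR adjusted p = 7.10e-04). ZNF703, a zinc finger repressor gene, rose from 14.1 ± 0.756 to 21.8 ± 1.53 CPM (0.63; edgeR adjusted p = 2.59e-06). NRIP1, described above, rose as well. In each of these 5 genes, every SOX2 siRNA library lay above each control. They were picked as called higher, so this adds nothing to the calls. Of all 17592 tested genes, 41.8% had groups that did not overlap.

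The genes that fell were homeobox genes. MEIS1, a HOX partner of the TALE class, fell from 18.3 ± 1.78 to 8.81 ± 0.229 CPM (log2 fold change -1.05; edgeR adjusted p = 2.26e-08). Its relative MEIS2 fell slightly, from 84.5 ± 2.77 to 75.1 ± 2.88 CPM (-0.17; edgeR adjusted p = 0.00652). HOXA2, a hindbrain patterning gene, fell from 1.22 ± 0.184 to 0.656 ± 0.278 CPM (-0.90; edgeR adjusted p = 0.0335). The HOXA2 call was lost without control replicate 2 or 3 or SOX2 siRNA replicate 2 or 3, at -0.79, -0.88, -0.61 and -0.92. It was also lost by DESeq2's Wald test (adjusted p = 0.105) and by edgeR with robust=FALSE (adjusted p = 0.0551).

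Other response genes did not pass the test. TGM2, the tissue transglutaminase gene, had 93, 80 and 107 counts in control and 119, 115 and 324 in SOX2 siRNA libraries (0.91; edgeR adjusted p = 0.329), with the high value in replicate 3 alone. Among the members that respond to retinoic acid, CYP26A1 was higher, RARB and CRABP2 were lower and DHRS3 had overlapping groups, so response genes inside and outside the member list stood on both sides of 0. No window of the response or pathway genes that matched RefSeq by symbol, 21 of 35 and 41 of 51, held a DR1, DR2 or DR5 as spelled above. These were 40 and 64 windows, and each motif was in only 0.0399% to 0.131% of all windows. Finding none in so few windows therefore says nothing about these genes.

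Markers of other cell types were read in the same comparison, in which 28.2% of all tested genes were called. The marker lists were likewise chosen with earlier results of these data known. Of 7 paraxial mesoderm markers, the tissue in which RDH10 and ALDH1A2 act in the embryo, TBX6, MEOX1, TCF15 and FOXC1 rose (log2 fold changes 1.63, 2.75, 1.40 and 1.83; edgeR, Benjamini-Hochberg adjusted p at most 1.93e-04), PAX3 was at -0.11 (edgeR adjusted p = 0.0549), and MSGN1 and FOXC2 had at most 8 counts. Of these 7 markers, 5 were tested. Their summed level was 108 to 109.8 CPM in control and 190.02 to 194 CPM in the other libraries. Most of that rise was FOXC1, at 30.7 ± 0.602 and 109 ± 3.04 CPM. Of 5 endoderm markers 2 were tested, and GATA4 rose from 6.58 ± 0.689 to 13.2 ± 0.438 CPM. SOX17 had at most 2 counts. The endoderm sum, mostly GATA4, went from a range of 8.20 to 10.1 CPM to one of 14.1 to 17.6 CPM. Of 6 neural progenitor markers 3 were tested, NES and OTX2 fell, and SOX1 had no counts. The neural sum was 786 to 799.6 CPM in control and 519 to 529 CPM in the other libraries. Nearly all of it was NES, at 780 ± 7.49 and 517 ± 5.60 CPM. All 4 endothelial markers fell (88.4 to 92.1 against 61.4 to 63.5 CPM in sum). Of 6 fibroblast markers 4 were tested and 2 rose (306 to 352 against 400 to 452 CPM in sum, mostly a collagen gene). Of 5 blood markers only CD14, with 8 to 21 counts per library, was tested, and it rose. HBB had no counts, and the blood sum was 0.359 to 0.636 against 0.861 to 0.937 CPM. Of 8 embryonal markers 7 were tested, 3 rose and 1 fell, with sums of 2528 to 2607 and 2420 to 2469 CPM. These sums join opposite changes. LIN28A rose from 706 ± 3.61 to 1148 ± 10.4 CPM, while the marker that fell had a log2 fold change of -0.97. The part of these markers in the differences of RDH10, CYP26A1, CRABP1, CRABP2 and RARB was not tested.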

How the data were processed

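Messenger RNA libraries (Trizol extraction and a KAPA mRNA HyperPrep kit, per the labels' protocols) were sequenced from 3 control siRNA and 3 SOX2 siRNA samples. The deposited values are unnormalized counts by gene symbol, whole numbers with unequal totals of 25152313 to 32753184. The submitters' processing notes name bcl2fastq 2.20.0, STAR 2.7.3a, Salmon 0.14.1, DESeq2 1.28.1 and GRCh38.p13. The counting step, the annotation and the use of strand are not given in the sources used here.

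Columns were matched to samples by the identifier in each sample's description. Genes were kept by filterByExpr (minimum count 10), scaled by TMM and tested over all kept genes with edgeR 4.0.16 (R 4.3.3; glmQLFit with robust=TRUE, glmQLFTest), with Benjamini-Hochberg adjustment and a threshold of 0.05. The fit was tested on simulated counts. CPM uses TMM-scaled library sizes, and intervals are 95% intervals from the same fit. Log2 CPM for distances used a prior count of 2. Intervals and limits on low counts cover the spread of these libraries or counting error only.

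Named genes are the members, SOX2, called genes of the lists, genes with a defining role and the 5 nearest to RDH10; the neighbours of ALDH1A1 and TGM2, IL1A and CLDN1 were chosen after their values were seen. The members and lists were chosen with earlier results of these data known. Gene lengths and exon overlaps are from GENCODE 29 and start-site sequences from RefSeq (GRCh38.p14). Alternatives were other scalings (DESeq2 size factors, upper quartile, total counts), filters (1 count in any library, 10 counts in every library), DESeq2 1.42.0, limma-voom (limma 3.58.1), robust=FALSE, a replicate block and each library left out. No library was excluded. A few genes of the lists were counted in the totals but are not reported here.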

Additional observations from a re-analysis of the deposited data

How the results depend on the processing

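The log2 fold changes of RDH10, CYP26A1, CRABP1, CRABP2 and RARB are a description of chosen genes, and over 15 alternatives each they lay within 2.29 to 2.38, 3.56 to 3.66, 0.15 to 0.22, -0.58 to -0.53 and -1.01 to -0.74. Those of the members with overlapping groups changed sign when single libraries were left out. DHRS3 ranged from -0.73 to 0.13, with positive values without control replicate 1 (0.077) or SOX2 siRNA replicate 2 (0.13). ALDH1A1 ranged from -0.75 to 0.55, positive without the same libraries (0.55 and 0.39), and ALDH1A2 from -0.15 to 0.40, negative without control replicate 2 (-0.15). The number of lower pathway genes was 2, with 4 under upper-quartile scaling, 1 by DESeq2's Wald test and 1 to 2 when a library was left out. Of 345 values for 23 other genes, 20 lost their call (HOXA2, RDH5 and RXRB among the genes), 1 gained one (FABP5) and 0 reversed. The cause was not tested.

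With the replicate block, 2720 genes were called higher and 2457 lower, against 2599 and 2365 without it. The block gave 7 higher and 3 lower pathway genes, 6 higher and 3 lower response genes, and the same member counts of 3 and 2. Deviations of same-numbered libraries correlated at 0.0868, -0.0377 and -0.0311 across genes, and those of differently numbered libraries at -0.120 to 0.155. A correlation over all genes cannot exclude an effect shared in fewer genes, so it does not settle if the number marks a pairing. Counts were low for ALDH1A2, ALDH1A3, DHRS3 and CYP26B1, at most 44 in any library, which limits what can be read from them. CYP26A1 was low in the control libraries only, at 14, 10 and 13 counts, and its ratio between groups rests on these.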

Other observations

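SOX2 siRNA replicate 3, the library that held 25 of the 28 ALDH1A3 counts and the high TGM2 value, was examined for other genes above all other libraries, after these values were seen. Only genes that passed the filter on low counts were ranked, which leaves out ALDH1A3. Ranked by the gap in log2 CPM to the next highest library, the first 3 of these were IL1A, TGM2 and CLDN1, with gaps of 1.63, 1.44 and 1.31. IL1A, encoding interleukin 1 alpha, had 63 counts there and 8 to 21 counts in the other libraries. CLDN1, encoding the tight junction protein claudin 1, had 52 counts there and 8 to 20 elsewhere. RDH10, CYP26A1 and RARB did not stand apart in this library, at 105, 4.79 and 2.88 CPM.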
